A study of Homo sapiens with 31 samples.

Results

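The deep intergenic target regions were miRNA target regions of human Huh-7.5 hepatoma cells that the authors classed as deep intergenic, apart from the classes at or beside annotated genes. They were chosen as every row of the deposited interaction table whose region was given as deep_intergenic and that was not on the mitochondrial chromosome, with no use of a measured value. This gave 7711 of the 31941 nuclear interactions (24.1%), out of 32712 interactions in the whole table, and the other 24230 nuclear interactions served for comparison. An interaction is a stretch of RNA found ligated to 1 miRNA. Of the deep intergenic interactions, 0 carried a gene symbol, against 21961 of the other nuclear ones. The table holds classes of their own for regions within 10 kb upstream or downstream of a gene. The nearest interaction at an annotated gene, on either strand, was a median of 266 kb away (quartiles 86.1 and 686 kb), and 241 deep intergenic interactions lay under 10 kb from one. Distances to the genes themselves were not measured.

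Ultraviolet light was used to cross-link Argonaute (AGO), the protein that holds a miRNA, to RNA in Huh-7.5 cells, an established line derived from a liver tumour, and the RNA purified with AGO was sequenced. The 31 libraries fell into 10 groups. By the standard protocol there were 7 libraries with no treatment named in the labels, 4 from mock cells, 4 from cells given LNA-122, a locked nucleic acid against miR-122, and 4 from cells given miravirsen, another miR-122 inhibitor. By CLEAR-CLIP, in which the miRNA and its target are joined while still on AGO, there were 2 libraries with ligase at low RNAse A, 2 without ligase at low RNAse A, 2 without ligase after siRNA against the RNA ligase HSPC117 at low RNAse A, and 2 each without ligase at low RNAse A, high RNAse A and RNAse T1 after HSPC117 over-expression. The table pools all 31 libraries of this single cell line, so no interaction can be traced to a library or a treatment and no replicate error can be given. Intervals and P values therefore describe the sampling of interactions only. Interactions were listed at 9 of 9 hepatocyte marker genes (57 at AFP, the fetal serum protein of liver tumours, and 49 at APOB), at 1 of 4 neuronal genes (6 at SYT1), and at 0 of 4 immune and 0 of 4 fibroblast genes.

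A miRNA guides AGO to RNA mainly through its seed, the bases 2 to 8 from its 5′ end, and pairing further along the miRNA can add to or stand in for the seed. The best known targets are the 3′-UTRs of mRNAs, whose translation and stability AGO lowers. RNA is also made from DNA between annotated genes, as long non-coding RNAs, unannotated transcripts, repeats and small RNA genes, and a chimeric read can report AGO beside such RNA without any gene model. The miRNAs on which the results below turn are shown with their seeds in capitals, from RefSeq (GRCh38.p14), in which 69 of the 82 miRNAs with at least 50 nuclear interactions were matched by name. The first 8 had deep intergenic shares above the rest of the table.

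miR-4488: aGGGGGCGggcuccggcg

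miR-5684: aACUCUAGccugagcaacag

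miR-92b-3p: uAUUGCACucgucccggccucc

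miR-574-5p: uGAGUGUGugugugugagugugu

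miR-454-3p: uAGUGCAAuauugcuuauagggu

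miR-196a-5p: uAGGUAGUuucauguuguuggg

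miR-194-5p: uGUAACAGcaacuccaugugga

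miR-18a-5p: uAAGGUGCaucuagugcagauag

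Those with shares below the rest included the following, of which miR-92a-3p has the seed of miR-92b-3p.

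miR-92a-3p: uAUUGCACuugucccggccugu

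miR-103a-3p: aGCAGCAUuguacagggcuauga

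miR-24-3p: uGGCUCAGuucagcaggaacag

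miR-484: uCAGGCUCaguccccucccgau

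miR-29a-3p: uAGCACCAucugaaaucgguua

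The last 2 are shown for single places described further on, where each was read many times.

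miR-17-5p: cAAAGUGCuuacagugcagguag

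miR-1269a: cUGGACUGagccgugcuacugg

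The deep intergenic interactions were not scattered evenly. Their target regions merged into 7189 places, a place being a run of overlapping target regions on 1 strand, and 6952 of these held a single interaction. No place held both deep intergenic and other interactions. Neighbouring deep intergenic places lay mostly on the same strand as long as they were close: 1587 of 1644 pairs 1 to 10 kb apart did (96.5%, 95% Wilson interval 95.5 to 97.3%). At 10 to 30 kb the same-strand share was 92.8% (91.1 to 94.1%, 1134 pairs), at 30 to 100 kb it was 81.6% (79.0 to 84.0%, 946 pairs), and beyond 1 Mb it was 49.9% (46.8 to 53.0%, 984 pairs). Introns, which are transcribed from 1 strand of a known gene, gave 98.7%, 96.3%, 84.5% and 47.8% at the same gaps. The deep intergenic shares were the lower ones up to 100 kb, and the intervals of both overlapped from 30 kb on. Over all deep intergenic interactions, 49.7% lay on the plus strand.

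**Figure D1:**
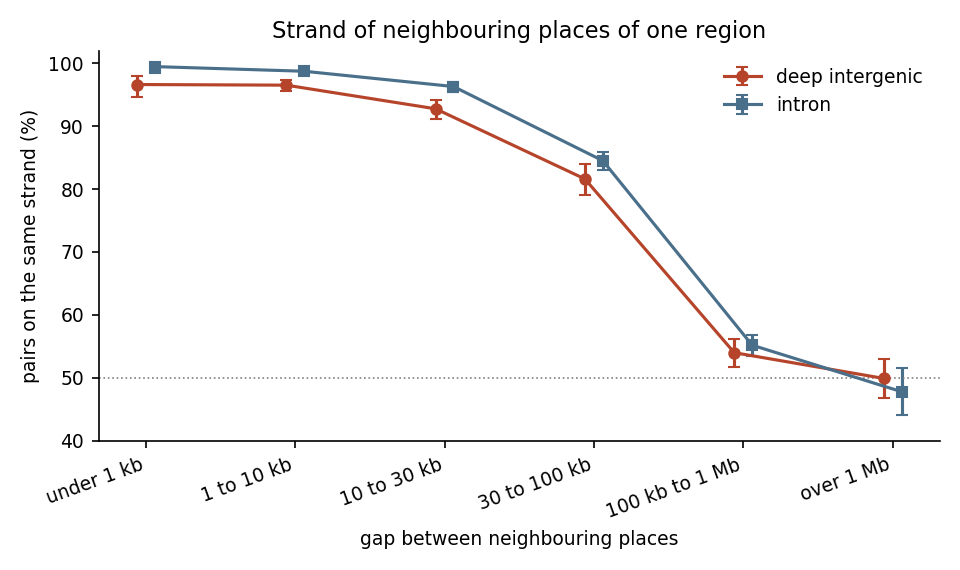
Share of neighbouring places on the same strand (y axis, percent, cut at 40) by the gap between them (x axis), for deep intergenic places (circles) and intronic places (squares). Bars are 95% Wilson intervals and the dotted line is at 50%. Both curves fall from over 96% within 10 kb to about 50% beyond 1 Mb.

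To follow this along the chromosomes, consecutive deep intergenic interactions on 1 strand, at most 100 kb apart and with no other interaction between them, were joined into runs. There were 3388 runs, and 121 of them held 10 or more interactions each and 2941 in all, 38.1% of the deep intergenic interactions. Of these 121 runs, 105 spanned over 100 kb. A further 2556 interactions (33.1%) stood alone. The single strand of a run was set by how it was built, and is no result.

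The long runs described next spanned 280 to 625 kb, with gaps of up to 100 kb joined. Whether these spans match the lengths of genes was not tested. On the minus strand of chromosome 13, 97 interactions of 42 miRNAs at 90 places filled 441 kb (80368623 to 80809866, hg18), between interactions at RBM26 (an RNA-binding protein gene) 1496 kb to the left and LINC00333 2891 kb to the right. Between these 2 genes RefSeq lists 41 others in GRCh38, 24 of them long non-coding RNAs and 3 protein-coding (NDFIP2, SPRY2 and SLITRK1). On the minus strand of chromosome 7, 94 interactions of 37 miRNAs filled 447 kb (118922602 to 119369714) between LSM8 and ING3. RefSeq lists 18 genes between this pair in GRCh38, 11 of them long non-coding RNAs, LINC02476 among them.

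Other runs had comparable extents. The minus strand of chromosome 3 held 90 interactions over 337 kb (148085744 to 148423042) between PLSCR1 and AGTR1, the angiotensin receptor gene. The plus strand of chromosome 4 held 86 over 398 kb (66427631 to 66825278) between EPHA5-AS1 and CENPC, a centromere protein gene. The minus strand of chromosome 5 held 77 over 625 kb (18679308 to 19304355), the longest run of all, between MYO10 and CDH18. On chromosome 7 the plus strand held 76 over 280 kb (145115011 to 145394790), ending 50.8 kb before an interaction at CNTNAP2. Between the genes flanking these runs, in this order, RefSeq lists 25, 13, 52 and 9 genes in GRCh38. Of these, 4, 0, 16 and 0 are protein-coding.

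Of the 12 runs with most interactions, the one nearest to interactions at annotated genes on both sides was on the minus strand of chromosome 11. Its 65 interactions filled 465 kb (26729123 to 27193922). The flanking interactions were at SLC5A12, a lactate transporter gene, 28.2 kb away, and at LGR4, 151 kb away. RefSeq places 9 genes between that pair, BBOX1-AS1, BBOX1, FIBIN and CCDC34 among them. Which of the RefSeq genes named here overlap a run was not tested, as no hg18 annotation was used. The miRNAs leading these runs were frequent in the whole table, with miR-17-5p leading on chromosome 13 (12 interactions) and chromosome 11 (7), and miR-194-5p on the plus strand of chromosome 7 (7).

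**Figure D2:**
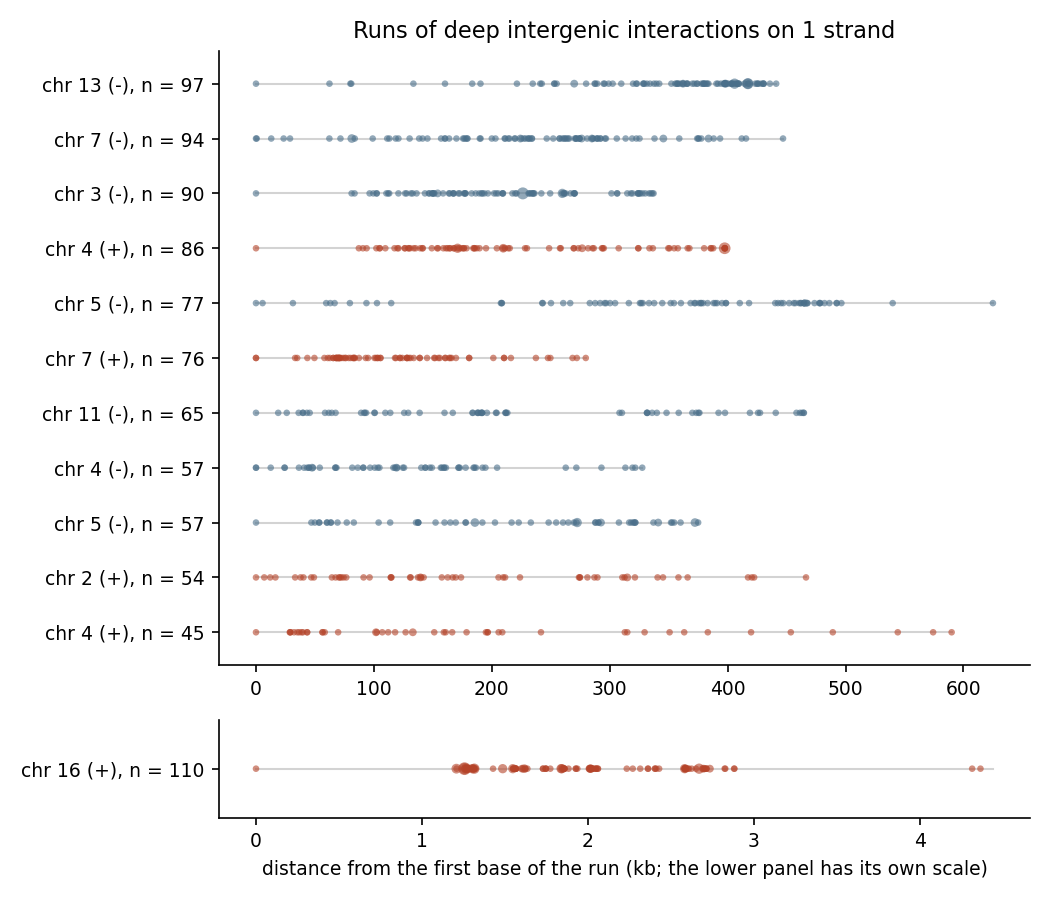
Interactions (points) in the 12 runs with most interactions, by distance in kb from the first base of the run, with chromosome, strand and number of interactions at the left; point area grows with the square root of the reads, red is the plus strand and blue the minus strand. The 11 runs of the upper panel spread over 280 to 625 kb, while the 110 interactions on chromosome 16 in the lower panel, on its own scale, lie within 4.44 kb.

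A few places were hit by many miRNAs. Places of 5 or more different miRNAs numbered 32 and held 298 interactions with 428 of the 8248 deep intergenic reads. The densest stretch was a run of 4.44 kb on the plus strand of chromosome 16 (33868792 to 33873234, hg18), with 110 interactions of 61 miRNAs and 186 reads. The nearest interactions at annotated genes were at ZNF267, 2033 kb to the left, and at VPS35, 11380 kb to the right. Between this pair RefSeq lists 162 genes in GRCh38, 11 of them protein-coding and 30 long non-coding RNAs. Whether any of them overlaps the stretch was not tested.

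Within that stretch, the place with the most reads was chr16:33870000-33870191, with 67 reads of 22 miRNAs. The most frequent there were miR-92a-3p (14 reads, the highest of any deep intergenic interaction), miR-27a-3p (9), miR-1269a (5 and 4, in 2 interactions) and miR-423-5p (6), and 1 of its 24 interactions had a canonical match, that is, a full pairing of at least 6 bases in the seed region. The place chr16:33870522-33870928 had the most miRNAs, 24, with 44 reads, and 5 of its 32 interactions were canonical. In the whole stretch 12 of 110 interactions (10.9%) were canonical and 32 had no seed match. The miRNAs joined to it were frequent in the whole table, led by miR-17-5p (7 interactions), miR-92a-3p (6) and miR-320a (6).

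Canonical matches were also few at the other crowded places. The rule for places (the 10 with most reads and the 10 with most miRNAs) gave 13 places. The 4 on chromosome 16 had 11 canonical matches in 94 interactions and the other 9 had 6 in 75. At chr5:71182519-71182746, between MCCC2 and MAP1B, 9 miRNAs gave 17 reads with 0 canonical matches. At chr11:84872688-84872867, between DLG2 and TMEM126A, 12 miRNAs gave 15 reads, and at chr2:132755063-132755164, 24.8 kb from an interaction at ANKRD30BL, 9 miRNAs gave 15 reads, again with 0 canonical matches at each. Most miRNAs at these places were read once, and some shared a seed, such as miR-17-5p and miR-20a-5p at the chromosome 11 place.

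Other crowded places belonged to 1 miRNA or 1 seed family. At chr13:80785806-80785903, inside the chromosome 13 run, all 15 reads came from 3 miRNAs that share a seed, miR-17-5p (8 reads, 6mer), miR-20a-5p (6 reads, 5mer) and miR-93-5p (1 read, 6mer). At chrY:10646102-10646265, miR-500a-5p gave 12 of 15 reads, over a 6mer. At chr4:66825157-66825278, at the right end of the chromosome 4 run, miR-1269a gave 10 of 15 reads over an 8mer.

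This miR-1269a place had one of the most stable predicted duplexes of the table. Its minimum free energy (MFE, the RNAhybrid score of a duplex in kcal/mol, lower for a more stable one) was -43.7, against a median of -22.2 over the 183 miR-1269a interactions, and 5 of all 31941 nuclear interactions had an MFE this low or lower. The other 5 miRNAs there had 1 read each, with read extents (the length of target RNA that the reads covered) of 22 to 25 nt that all ended at the same base, 66825225, whereas the reads of miR-1269a covered 66825157 to 66825206. According to the methods, fragments that mapped to miRNA genes had been removed. MIR1269A, the gene of this miRNA, is the only miRNA gene that RefSeq lists between EPHA5-AS1 and CENPC in GRCh38, and whether the place lies at that gene was not tested. Among the 5 deep intergenic interactions of lowest MFE, 3 were of miR-1269a, all over 8mers, and 1 of its relative miR-1269b. The miR-1269b interaction and 1 of those of miR-1269a had the same target region on chromosome 9, with 1 read each. The miR-1269a interaction on chromosome 1 also had 1 read.

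Of the 82 miRNAs with at least 50 nuclear interactions, 8 (9.76%) had a higher and 10 (12.2%) a lower deep intergenic share than the rest of the table, 22.0% in all (Fisher's exact test per miRNA, two-sided, Benjamini–Hochberg adjusted P under 0.05). The highest share was that of miR-4488, an 18-nt miRNA with a run of G in its seed: 96 of its 139 interactions were deep intergenic (69.1%, interval 61.0 to 76.2%, odds ratio 7.09 by Fisher's exact test, adjusted P = 4.23e-27). miR-5684 followed with 41 of 71 (57.7%, odds ratio 4.31, adjusted P = 3.99e-08) and miR-92b-3p with 33 of 80 (41.2%, odds ratio 2.21, adjusted P = 0.00818). miR-574-5p, whose sequence is rich in UG repeats, had 140 of 396 (35.4%, odds ratio 1.73, adjusted P = 9.60e-06).

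These 4 miRNAs were mostly found away from the runs. Of the deep intergenic interactions of miR-4488, 88.5% stood alone, as did 92.7% of those of miR-5684. The lone share was 72.7% for miR-92b-3p and 62.9% for miR-574-5p, against 33.1% over all deep intergenic interactions and 25.3% for miR-17-5p. A high lone share was not particular to these 4. For miR-4455, whose deep intergenic share did not pass the test, it was 62.5% (15 of 24). Canonical seed matches were few, 3 of 96 for miR-4488, 1 of 41 for miR-5684, 5 of 33 for miR-92b-3p and 6 of 140 for miR-574-5p, and 73 of the 96 miR-4488 target regions had no seed match at all. Their canonical shares at other nuclear regions were also low, with 0% for miR-4488, 0% for miR-5684, 14.9% for miR-92b-3p and 3.91% for miR-574-5p. Repeated reads were most frequent for miR-574-5p, with an N of at least 2 at 25 of 140 deep intergenic interactions (17.9%) and at 32.8% of its other ones.

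Of the other 4 miRNAs with higher shares, miR-194-5p, a liver and gut miRNA, contributed the most, with 407 deep intergenic interactions of 1379 (29.5%, odds ratio 1.33 by Fisher's exact test, adjusted P = 3.53e-05). miR-454-3p had 32.5%, miR-196a-5p 31.5% and miR-18a-5p, of the miR-17 cluster, 29.2%. The higher shares of miR-194-5p, miR-196a-5p and miR-18a-5p did not pass the test at read extents of 30 nt or more (odds ratios 1.20, 1.32 and 1.25), and against introns alone neither these 3 nor miR-454-3p (1.37) and miR-574-5p (1.15) did. With 1 interaction per place, miR-454-3p (odds ratio 1.36) and miR-196a-5p (1.37) did not pass. Without chromosome 13, miR-196a-5p (1.39) and miR-18a-5p (1.27) did not. At the low end were miR-29a-3p, with 11 of 135 interactions (8.15%, odds ratio 0.278 by Fisher's exact test, adjusted P = 3.29e-05), miR-320c (9.26%), miR-484 (10.9%), miR-483-3p (11.9%), miR-423-3p (14.2%), miR-24-3p (14.2%) and miR-103a-3p (70 of 478, 14.6%, odds ratio 0.535, adjusted P = 7.36e-06). miR-320a, with 318 of 1762 (18.1%, odds ratio 0.679, adjusted P = 1.12e-08), was the most frequent miRNA among those with lower shares. miR-106b-5p, at 18.6%, completed the set together with miR-92a-3p. Of the lower shares, only those of miR-320a, miR-103a-3p, miR-484 and miR-29a-3p passed the test at read extents of 30 nt or more. Against introns alone only those of miR-320a, miR-103a-3p and miR-29a-3p did. There the odds ratios were 0.915 for miR-92a-3p, 0.727 for miR-24-3p and 0.453 for miR-484. The remaining lower ones did not pass or had too few interactions to be tested.

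The miRNA with most deep intergenic interactions was miR-17-5p, with 576 of 2448 (23.5%), followed by miR-194-5p, miR-320a, miR-26a-5p (308) and miR-92a-3p (306). The liver miRNA miR-122-5p had 238 of 1066 (22.3%). Of the 10 miRNAs with most deep intergenic interactions, the shares of miR-27a-3p (27.5%), miR-186-5p (25.7%), miR-19a-3p (24.4%), miR-16-5p (23.8%), miR-17-5p, miR-26a-5p (22.95%) and miR-122-5p did not pass the test, with odds ratios from 0.90 to 1.20. In all, 326 of the 530 miRNAs of the nuclear table had a deep intergenic interaction.

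Members of a seed family mostly had similar shares: miR-17-5p, miR-20a-5p, miR-93-5p and miR-106b-5p lay between 18.6 and 23.5%, and miR-16-5p, miR-15a-5p and miR-15b-5p between 19.2 and 23.8%. The family of miR-92b-3p spanned more, from 20.7% for miR-92a-3p to 41.2%. miR-92b-3p, chosen here after its values were seen, and miR-92a-3p (306 of 1477) differed with an odds ratio of 2.69 (Fisher's exact test, two-sided, P = 6.72e-05). The median read extent of miR-92b-3p was 21 nt and that of miR-92a-3p was 50 nt. Among interactions with a read extent under 30 nt, the shares were 55.6% (25 of 45) and 31.7% (51 of 161). At 30 nt or more they were 22.9% (8 of 35) and 19.4% (255 of 1316), which did not pass the test (Fisher's exact test, two-sided, P = 0.664). Reads that fitted several members of a family had been given to 1 of them at random, which blurs differences between members.

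**Figure D3:**
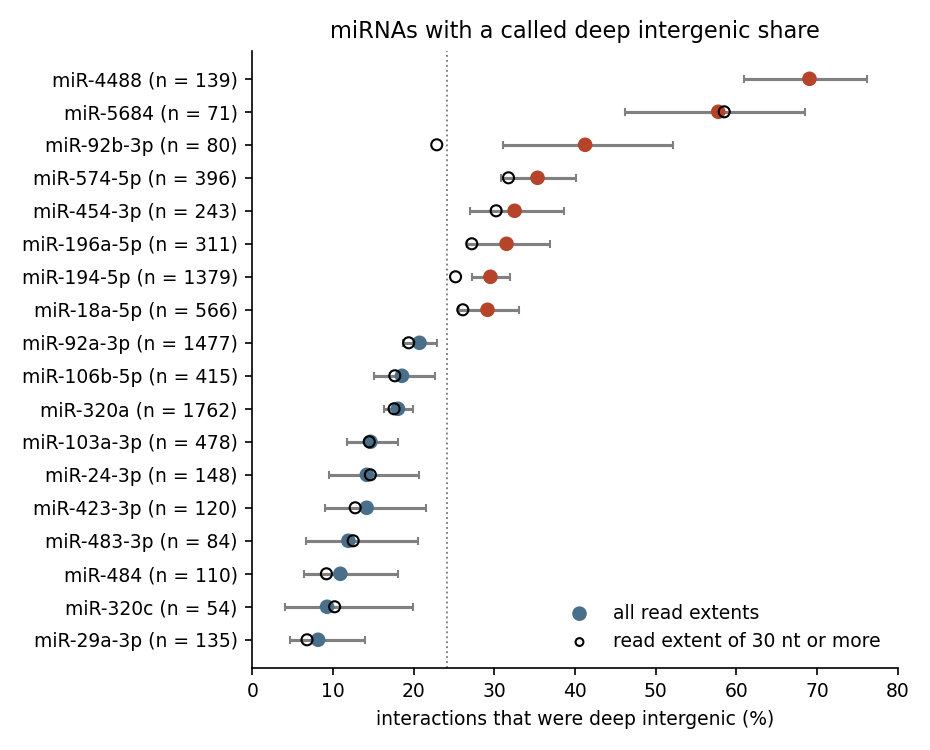
Share of the interactions of a miRNA that were deep intergenic (x axis, percent), for the 18 miRNAs that differed from the rest; filled points are all interactions with 95% Wilson intervals, open circles those with a read extent of at least 30 nt (shown from 20 interactions on), and the dotted line is the share over all nuclear interactions, 24.1%. miR-4488 and miR-5684 lie farthest above it, and the open circle of miR-92b-3p, at 22.9%, lies under it.

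The read extent was shorter in the deep intergenic class, with a median of 47 nt (quartiles 33 and 56) against 50 nt (37 and 56). It was under 30 nt for 1617 deep intergenic interactions (21.0%) and 2671 others (11.02%). The deep intergenic share was 48.1% (44.8 to 51.3%) of the 903 interactions under 23 nt and 43.5% of the 1711 at 23 to 25 nt, fell to 26.2% at 26 to 29 nt, and lay between 18.4 and 22.6% at all longer extents. Only uniquely mapped fragments had been kept, and whether the shortest of them were placed correctly was not tested. For miR-4488 2 of 139 interactions had 30 nt or more, while miR-5684 kept its high share there (31 of 53, 58.5%). Over the 82 miRNAs, Pearson's r of the median read extent with the deep intergenic share was -0.42, and -0.20 without miR-4488 and miR-5684, as a description over points that share libraries.

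Read extent also went with the position along the genome. Of the interactions that stood alone, 39.1% had an extent under 30 nt (median 36 nt), against 7.92% of those in runs of 10 or more (median 55 nt, against 53 nt for introns). Those that stood alone had an N of at least 2 in 2.54% of cases and those in runs of 10 or more in 5.00% (odds ratio 0.496, Fisher's exact test, two-sided, P adjusted over the 9 comparisons of runs = 3.85e-06).

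Deep intergenic target regions had fewer seed matches than other nuclear regions. A canonical match (8mer, 7mer-m8, 7mer-A1, 6mer or offset 6mer, from the longest pairing with the seed to the shortest) was found in 1918 of 7711 (24.9%, interval 23.9 to 25.9%) against 7906 of 24230 (32.6%, 32.0 to 33.2%), a difference of -7.76 percentage points (-8.88 to -6.62; Fisher's exact test, two-sided, P adjusted over 6 comparisons = 5.41e-38). No match of any kind was found in 18.8% against 13.7%, a difference of 5.17 percentage points (4.21 to 6.16, Fisher's exact test, adjusted P = 3.99e-27). Canonical matches were found in 41.9% of 3′-UTR, 32.1% of coding, 31.4% of 5′-UTR and 30.5% of intron regions, and in 32.5% within 10 kb downstream of genes. Shares like that of the deep intergenic class or lower were those of 425 unclassified exon regions (24.2%) and of 339 regions within 10 kb upstream of genes (20.9%). With miRNAs compared only with themselves, the Mantel–Haenszel odds ratio was 0.717 (0.675 to 0.762) for a canonical match and 1.34 (1.25 to 1.44) for none.

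By type, 9 of the 10 differed (90.0%, Fisher's exact test, adjusted P under 0.05), 3 of them higher (30%) and 6 lower (60%). The 8mer, the strongest match, made up 5.15% of deep intergenic and 7.39% of other regions, and the 7mer-m8 5.89% and 8.25%. All 5 canonical types were lower, as was the 5mer (5.54% and 6.18%), and the 6mer-A1 did not pass the test (1.57% and 1.78%). Matches with 1 mismatched base (30.7% and 29.4%) and with 1 bulged base (18.4% and 16.4%) were higher, like regions with none.

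**Figure D4:**
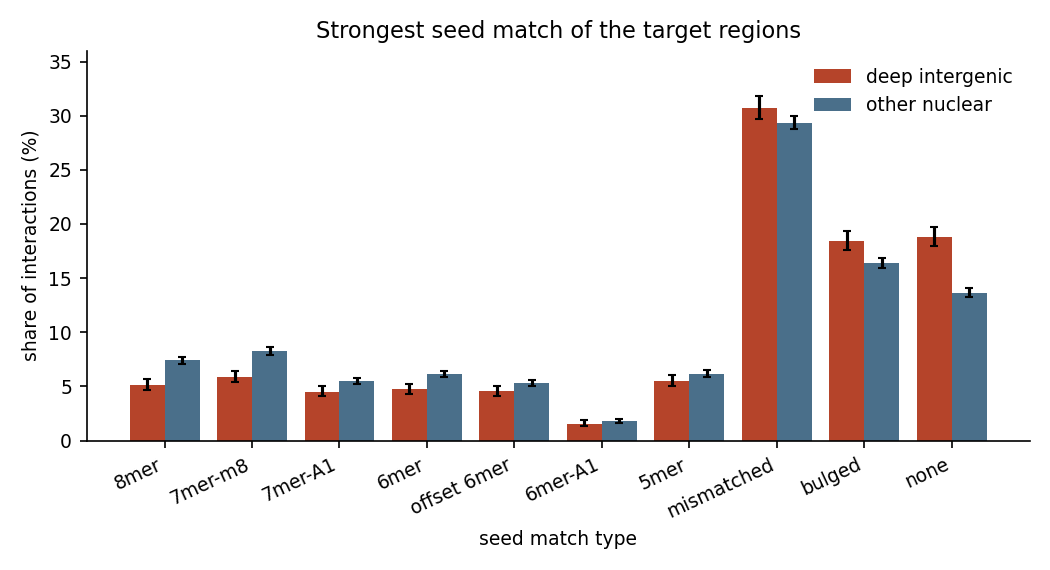
Share of interactions (y axis, percent) by the strongest seed match in the target region (x axis), for deep intergenic (red) and other nuclear interactions (blue); bars are 95% Wilson intervals. The deep intergenic bars are lower for the 5 canonical types and higher for mismatched, bulged and none, where they reach 18.8% against 13.7%.

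The difference in canonical matches was found across miRNAs and chromosomes. The deep intergenic share of canonical matches was the lower one for 62 of the 82 miRNAs, and 6 passed the test on their own, all lower (7.32% of those tested, and 0% higher). These were miR-27a-3p (16.0% against 29.2%), miR-26a-5p (14.6% against 25.7%), miR-194-5p (17.2% against 26.3%), miR-17-5p (36.8% against 44.8%), miR-23a-3p (23.2% against 34.4%) and miR-15a-5p (25.4% against 47.5%). miR-122-5p had 52.9% against 46.9%, the highest canonical share among the 10 miRNAs with most deep intergenic interactions, and did not pass the test. By chromosome the share was lower in 23 of 24, all but the Y chromosome.

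The size of the difference varied with the read extent. Under 23 nt, 7.14% of deep intergenic and 16.2% of other regions had a canonical match, and at 23 to 25 nt 9.14% and 24.9%. At 30 nt or more the shares were 28.4% and 33.5%, a difference of -5.06 percentage points (-6.34 to -3.75; Fisher's exact test, P = 5.97e-14), against -14.3 (-16.6 to -12.0) under 30 nt. Stratified by miRNA and read extent together, the odds ratio was 0.761 (0.715 to 0.810) for a canonical match and 1.25 (1.16 to 1.35) for none. Seed matches had been searched in 75 nt from the ligation point, which ran past the end of short reads.

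**Figure D5:**
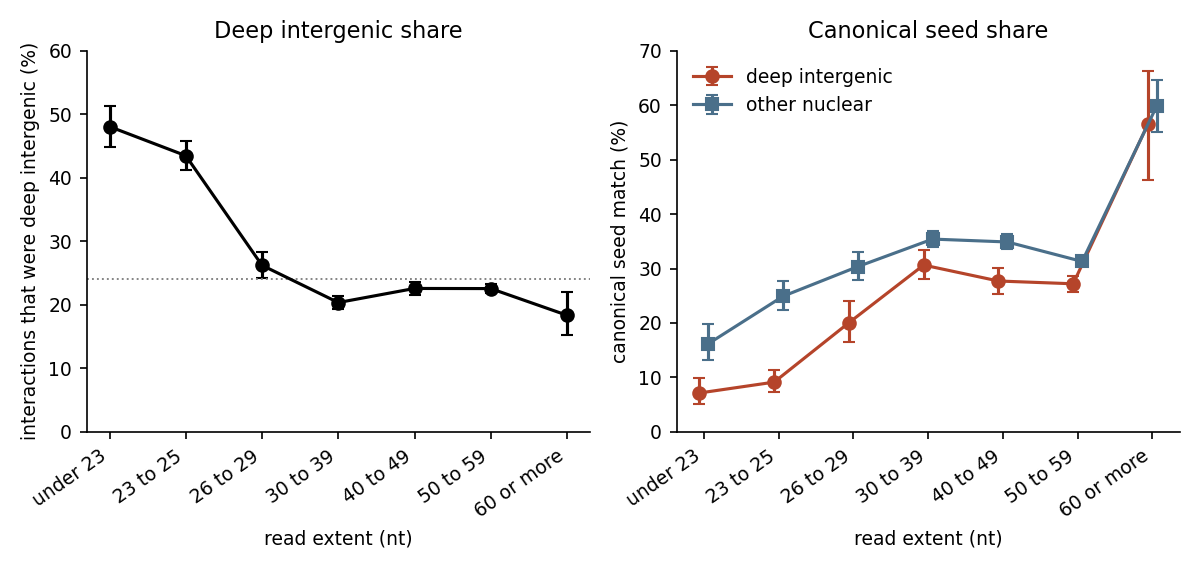
Left, deep intergenic share of all nuclear interactions (y axis, percent) by read extent in nt (x axis), with the overall share of 24.1% dotted; right, share of canonical seed matches in deep intergenic (circles) and other nuclear interactions (squares) by read extent. Bars are 95% Wilson intervals. The deep intergenic share is 48.1% under 23 nt and between 18.4 and 22.6% from 30 nt on, where the 2 curves of canonical matches also lie closer.

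In the runs, the seed shares lay between those of lone interactions and those of introns. Canonical matches were 25.9% (24.3 to 27.5%) of the 2941 interactions in runs of 10 or more and 21.7% (20.2 to 23.3%) of the 2556 that stood alone, and none was found in 16.2% and 24.1% (lone interactions higher by 7.91 percentage points, 5.79 to 10.04, Fisher's exact test, adjusted P = 1.20e-12). Against introns (30.5%), the runs of 10 or more had fewer canonical matches, by -4.61 percentage points (-6.36 to -2.82, Fisher's exact test, adjusted P = 1.48e-06), while the difference in none did not pass the test (1.37, -0.06 to 2.87, adjusted P = 0.063). Leaving out the chromosome 16 stretch, the runs had 26.5% canonical matches. These tests were chosen after the data were seen and were not stratified by miRNA or read extent. Read extents under 30 nt made up 39.1% of the lone interactions and 7.92% of those in runs of 10 or more.

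Predicted duplexes were slightly less stable in the deep intergenic class. The median MFE was -18.2 (quartiles -22.1 and -14.8) against -19.4 (-23.4 and -15.9). Within miRNAs the difference was 0.77 ± 0.06 (coefficient ± SE clustered by place, interval 0.65 to 0.89), and with the seed match type held equal as well it was 0.52 ± 0.06. According to the methods, the prediction forced seed pairing where a seed match or a variant of it was present, and left it free otherwise. Seed pairing was thus partly set by the seed match and is no separate result. Each seed position was paired less often than elsewhere, with differences from -2.35 percentage points at position 8 to -5.56 at position 6. Positions 9 to 11 were paired more often by 0.58 to 1.6 points. Positions 12 to 21 were all paired less often again, with differences from -0.91 points at position 21 to -3.20 at position 20. Positions that a short miRNA lacks were counted as unpaired, which lowers the last positions where short miRNAs are more frequent. The 18-nt miR-4488 made up 1.25% of deep intergenic and 0.18% of other interactions. The differences by position were not taken within miRNAs and were not tested.

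Of the 7 duplex classes that the authors made by k-means clustering of pairing patterns, 4 differed (57.1%), 1 higher (14.3%) and 3 lower (42.9%). Class 4, whose duplexes paired 1.96 of the 7 seed positions on average against 5.57 to 5.92 in the other classes, made up 13.5% of deep intergenic and 10.2% of other interactions (odds ratio 1.37 by Fisher's exact test, adjusted P = 3.57e-14). Classes 2, 3 and 5B were lower, with odds ratios of 0.927, 0.911 and 0.898. The classes rest on the same predicted duplexes, in which seed pairing was partly forced by the seed match. Where a canonical match existed, it began within the first 37 of the 75 positions after the ligation point in 83.3% of deep intergenic and 82.8% of other regions, a difference of 0.47 percentage points (-1.45 to 2.28) that did not pass Fisher's exact test (adjusted P = 0.636).

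Most deep intergenic interactions rested on 1 read. An N of at least 2, N being the number of separately cloned chimeric reads, was found for 296 (3.84%, 3.43 to 4.29%) against 4.75% (4.49 to 5.03%) of the others (Fisher's exact test, adjusted P = 9.14e-04), and 31 had an N of 5 or more. The share was 3.47% in introns, 5.17% in coding sequence and 7.93% in 3′-UTRs. After the chromosome 16 interaction of miR-92a-3p, the highest N were 12 for miR-500a-5p on the Y chromosome, 11 for miR-26a-5p on chromosome 3 (148312079 to 148312154, over a 6mer, in the chromosome 3 run), 11 for miR-25-3p on chromosome 21, and 10 each for miR-1269a on chromosome 4 and miR-574-5p on chromosome 9. Interactions at places of 3 or more miRNAs were 5.51% of the deep intergenic and 4.02% of the others (Fisher's exact test, adjusted P = 7.95e-08). Without the chromosome 16 stretch the difference was 0.16 percentage points and did not pass the test (Fisher's exact test, P = 0.527).

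The deep intergenic share differed by chromosome, with 16 of 24 called (66.7%, Fisher's exact test per chromosome, adjusted P under 0.05), 7 higher (29.2%) and 9 lower (37.5%). It was highest on the Y chromosome, with 47 of 54 interactions (87.0%, interval 75.6 to 93.6%), 31 of which lay in a single run of 3.65 kb on the plus strand. Chromosomes 13 (43.0%), 4 (38.7%), 5 (34.2%), 8 (30.8%), 18 (29.4%) and 2 (26.1%) were also higher. The 3 chromosomes of lowest share were 22 (8.50%), 17 (9.96%) and 19 (10.4%). Whether the shares follow the gene content of the chromosomes was not tested.

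The other lower ones were chromosomes 1 (527 of 3241, 16.3%), 20 (17.7%), 10 (17.9%), 11 (18.2%), 21 (18.6%) and 9 (20.5%). Chromosome 16 as a whole had 237 of 889 (26.7%) and did not pass the test. Without the stretch of 110 interactions it was among the lower ones (odds ratio 0.615 by Fisher's exact test, adjusted P = 4.24e-07). The 5 windows of 100 kb with most deep intergenic interactions were this stretch, with 110, and windows within the runs on chromosome 13 (64), chromosome 3 (40) and the minus (40) and plus strand (35) of chromosome 7, and each of the 5 held interactions on 1 strand only. Canonical matches made up 12 of 64 in the chromosome 13 window, 11 of 40 in the chromosome 3 window, 12 of 40 and 5 of 35 in those of chromosome 7.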

How the data were processed

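Libraries of RNA purified with AGO (31, Huh-7.5 cells) had been sequenced. The submitters' processing notes name CASAVA 1.8.2, Bowtie (no version in the sources used here) and hg18. According to the methods, reads holding a miRNA were found with Bowtie, a read fitting several miRNAs was given to 1 at random, the rest of the read was mapped to the genome with only unique hits kept, PCR duplicates and fragments at miRNA genes were removed, and chimeras of 1 miRNA that overlapped were joined. The authors deposited N as counts of separately cloned reads, not normalized, and the MFE as an RNAhybrid score, whose unit the study gives as kcal/mol and the table itself does not name. The source of the gene annotation behind the region classes is not stated. Library depths were not used, since the table names no library.

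From the table, rows on the mitochondrial chromosome (771) were left out. The read extent was the difference of the coordinates in the name of an interaction, and coordinates are printed as the table gives them. Shares were compared by Fisher's exact test (two-sided), and MFE by least squares with miRNA as fixed effect and errors clustered by place. Adjustment was by Benjamini–Hochberg with a threshold of 0.05. Sets of miRNAs, chromosomes, classes and seed types were each adjusted over all members tested. The places and miRNAs named follow a rule: the 10 miRNAs with most deep intergenic interactions, up to 8 called at either end, the 10 places with most reads and with most miRNAs, the 5 fullest windows, their nearest interactions at genes and all called chromosomes. miR-1269a, the runs, the read extent and the comparisons resting on them were chosen after the data were seen. The members and lists were chosen with earlier results of these data known. Genes beside a place are the nearest interactions at a gene that RefSeq (GRCh38.p14, 7047 of 7069 gene IDs matched) puts on the same chromosome, and RefSeq served only for names and gene order. Target sequences were not used here. Interactions at 1 place are not independent. Intervals are 95% Wilson intervals, for differences combined by Newcombe's method, and cover counting error only. The tests were checked on simulated data in which interactions were drawn independently. That check does not cover interactions that share a place or a run. Fisher's tests ran in scipy 1.17.1, the MFE fits in numpy 2.4.6 with scipy, and the stratified odds ratios in statsmodels 0.14.6. Tables were made in pandas 2.3.3 and plots in matplotlib 3.10.9, under Python 3.11.15. The alternatives were other backgrounds, 1 interaction per place, N of at least 2, and leaving out crowded places or a chromosome.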

Additional observations from a re-analysis of the deposited data

How the results depend on the processing

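The lower canonical share kept its direction and passed the test under every alternative tried, with differences from -17.0 percentage points against 3′-UTRs to -5.06 at read extents of 30 nt or more, as did the share with no match (3.53 to 8.70) and the MFE difference (0.52 to 1.18). The alternatives on read extent and on the densest run were chosen after seeing the data, and the cause of the changes that follow was not tested. The share with an N of at least 2 was 0.37 percentage points higher than in introns (Fisher's exact test, P = 0.176). The share at places of 3 or more miRNAs differed by -1.19 against 3′-UTRs, by -1.36 counting places of 2 or more miRNAs, by 0.16 without the densest run and by 0.013 as a share of places. Canonical matches near the ligation point differed by 3.12 against 3′-UTRs and by -9.27 among interactions with an N of at least 2. Against introns, 6 miRNAs and 2 duplex classes differed. With an N of at least 2, 3 miRNAs (of 8 that could be tested), 5 chromosomes, 0 duplex classes and 3 seed types did. At read extents of 30 nt or more, 7 miRNAs (all 7 among the 18), 1 duplex class and 5 seed types did. Duplex classes that differed were 1 with 1 interaction per place, 2 without places of 5 or more miRNAs and 2 without the densest run.

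Odds ratios that changed side ranged from 0.615 for chromosome 16 to 1.66 for the 6mer, and some were near 1. For miR-19a-3p they were 0.983 with 1 interaction per place, 0.992 without places of 5 or more miRNAs, 0.788 against 3′-UTRs, 0.985 without chromosome 13 and 0.9749 at extents of 30 nt or more. Against introns they were 0.861 for miR-186-5p, 1.06 for miR-16-5p and 1.01 for miR-122-5p, and against 3′-UTRs 1.003 for miR-16-5p, 1.17 for miR-122-5p, 1.20 for chromosome 21 and 1.003 for the 5mer. At extents of 30 nt or more they were 1.06 for miR-16-5p and 1.03 for miR-17-5p. With an N of at least 2 they were 1.02 for miR-17-5p, 0.849 for chromosome 8, 1.16 for class 5B, 1.66 for the 6mer and 1.09 for the 5mer. Chromosome 16 had 0.656 with 1 interaction per place, 0.661 without places of 5 or more miRNAs, 0.877 against 3′-UTRs and 0.615 without the densest run. Its lower share passed Fisher's exact test in each of these except against 3′-UTRs (adjusted P = 0.305).

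No paired analysis was possible because the table pools all libraries and names none. Depth limits these results at the level of single interactions, since 7415 of 7711 rest on 1 read.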
